A study of Caenorhabditis elegans with 2 samples.

Results

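Transfer RNA (tRNA) genes make up a large multi-copy gene class in Caenorhabditis elegans, and sites of the transcription factor MEF-2 were described here at all of those in the nuclear genome. Ensembl release 115, on assembly WBcel235 (ce11), lists 612 nuclear tRNA genes. Each was given a window from 1000 bp upstream to 200 bp downstream of its 5′ end, and overlapping windows were merged, which left 477 distinct regions with a median width of 1201 bp and a longest width of 3966 bp. Of these regions, 382 held 1 tRNA gene, 73 held 2, 12 held 3 and 10 held 4 to 7. Together they cover 650814 bp, or 0.649% of the nuclear bases. The rule for the regions reads the annotation alone and no signal value.

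The study mapped MEF-2 on chromatin by immunoprecipitation and sequencing (ChIP-seq) in L1 larvae, the first larval stage. Whole worms of strain OP301, with the genotype unc-119(tm4063) III; wgIs301, were used, males and females pooled, and the antibody entry reads mef-2. The labels describe the target as eGFP-tagged MEF-2, made from the integrated transgene. There are 2 biological replicates, which form 1 group, with no untagged strain, no other stage and no other genotype among the samples analysed here. All worms carry both the unc-119 allele and the transgene. The promoter that drives the tagged protein is not given in the sources used here, and whole animals mix all tissues, so a site cannot be placed in a cell type. With 1 group no test between conditions was possible, and genes or regions are not replicates of one, so shares are set beside background shares without a p-value. Intervals are 95% Wilson intervals and cover counting error only.

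RNA polymerase III transcribes tRNA genes from a promoter that lies inside the gene. The A box and the B box within the transcribed sequence are bound by the factor TFIIIC, which places TFIIIB just upstream of the start, and TFIIIB recruits the polymerase. MEF-2 belongs to the MADS-box family, whose MEF2 members are known from muscle, neurons and other tissues as regulators of genes read by RNA polymerase II, through an A/T-rich element. The genes are named here by their clone and a number after the letter t, with the amino acid their tRNA carries.

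The sequences below show what lay under the strongest sites. A site is the point source of a peak, the base at which the authors' caller placed its summit. The lines give the site with 50 bases on either side for the 6 tRNA regions with the highest signal values in the thresholded list, from the RefSeq genome of WBcel235, 5′ to 3′ along the strand of the nearest tRNA gene. Capitals mark bases of that tRNA gene.
ZK994.t2 (Lys), chrV:8500514-8500614, minus strand: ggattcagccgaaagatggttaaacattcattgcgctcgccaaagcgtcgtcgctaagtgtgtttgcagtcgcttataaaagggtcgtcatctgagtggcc
F52H2.t1 (Asp), chrX:2553486-2553586, plus strand: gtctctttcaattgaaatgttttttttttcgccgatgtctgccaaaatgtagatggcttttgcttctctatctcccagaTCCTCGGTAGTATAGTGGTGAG
R04A9.t1 (Gln), chrX:410138-410238, plus strand: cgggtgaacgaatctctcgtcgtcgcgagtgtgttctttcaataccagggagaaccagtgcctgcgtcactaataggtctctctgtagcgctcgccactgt
C42D8.t1 (Ile), chrX:5085599-5085699, minus strand: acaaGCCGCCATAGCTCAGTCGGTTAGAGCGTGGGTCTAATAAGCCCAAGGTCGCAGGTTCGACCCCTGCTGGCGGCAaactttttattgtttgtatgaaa
C06G1.t1 (His), chrX:16634830-16634930, minus strand: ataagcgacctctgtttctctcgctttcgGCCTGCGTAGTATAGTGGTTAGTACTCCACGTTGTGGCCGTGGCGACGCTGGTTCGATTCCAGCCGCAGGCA
K08E7.t1 (Lys), chrIV:12594648-12594748, plus strand: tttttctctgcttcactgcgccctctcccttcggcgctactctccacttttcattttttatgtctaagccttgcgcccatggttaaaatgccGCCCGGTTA

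At C42D8.t1 and C06G1.t1 the window held the complete tRNA gene, of 74 and 72 bases. At F52H2.t1 and K08E7.t1 it held the first 22 and 9 bases, and at ZK994.t2 and R04A9.t1 none. The next lines give 4 whole tRNA genes from regions with a thresholded site, shown because they differ in the exact letters searched for at the B box. The core GGTTCGA, by which the B box was searched, is in capitals where the gene holds it.
ZK994.t2 (Lys), chrV:8499564-8499636, minus strand: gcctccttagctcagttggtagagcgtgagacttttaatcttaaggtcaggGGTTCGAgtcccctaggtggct
C53C7.t1 (Ser), chrX:13046578-13046659, plus strand: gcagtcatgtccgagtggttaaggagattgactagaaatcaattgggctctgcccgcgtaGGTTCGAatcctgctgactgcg
R04A9.t1 (Gln), chrX:410391-410462, plus strand: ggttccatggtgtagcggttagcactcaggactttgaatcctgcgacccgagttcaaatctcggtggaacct
W09D6.t2 (Pro), chrIII:11066848-11066919, minus strand: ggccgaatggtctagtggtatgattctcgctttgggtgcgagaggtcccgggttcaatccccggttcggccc

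The genes for tRNA-Lys and tRNA-Ser hold the core, and those for tRNA-Gln and tRNA-Pro hold no exact match to it. Over all 612 nuclear tRNA genes the core was found on the gene strand in 395 (64.5%).

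Sites were gathered at the very 5′ ends of tRNA genes. In the relaxed list of the pooled replicates, which holds peaks together with background, the 100 bp just upstream of tRNA 5′ ends held 108 sites, 6.5 times the nuclear mean density, and the first 100 bp downstream held 94, 5.48 times that mean. The next 100 bp on the upstream side stood at 1.55 times and those on the downstream side at 2.13 times. Beyond 200 bp, and out to 1000 bp, each bin lay between 0.404 and 1.62 times. A tRNA gene lies for the most part within the first downstream bin, so the crowded stretch is the gene together with the bases just before it.

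The same place stood out in each replicate. In replicate 1 the density was 4.07 times the nuclear mean in the 100 bp upstream and 4.71 times in the 100 bp downstream, and in replicate 2 it was 8.9 and 6.01 times. The upstream bin was thus the higher of the pair in replicate 2 and the lower in replicate 1. Among sites within 200 bp of a tRNA 5′ end, the median position was 12 bp downstream in replicate 1 (230 sites, quartiles -51 and 71 bp), -10 bp in replicate 2 (176 sites, quartiles -36 and 44 bp) and -1 bp in the pooled list (261 sites, quartiles -45 and 59 bp). In bins of 20 bp, replicate 2 had its most sites, 34, in the 20 bp just before the 5′ end, while replicate 1 had 16 there and between 16 and 22 in each bin from -60 to 79 bp. In these 20 bp bins the pooled list dipped to 13 sites over the first 20 bases of the gene, between 26 just before and 28 just after.

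Around protein-coding 5′ ends the pooled sites formed a lower and more upstream rise, with at most 1.99 times the nuclear mean, in the second 100 bp upstream. In the thresholded list, which the authors cut by IDR (irreproducible discovery rate, which scores how well the replicates rank the same peaks), the density was 18.9 times its nuclear mean in the 100 bp upstream of tRNA 5′ ends (9 sites) and 14.3 times in the 100 bp downstream (7 sites). At protein-coding 5′ ends it reached 7.32 times in the second 100 bp upstream and was 0.94 times in the first 100 bp downstream. The differences in position between the gene classes were not tested.

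**Figure D1:**
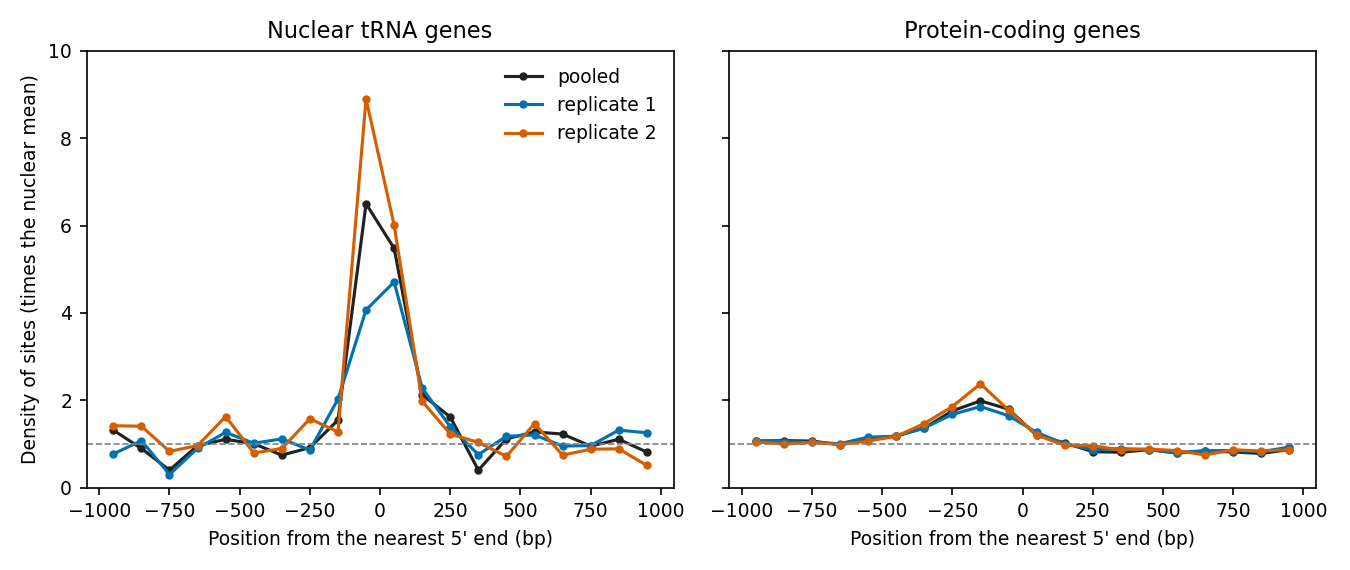
Density of sites, as multiples of the nuclear mean of each list, in bins of 100 bp by position from the nearest 5′ end (negative is upstream), for tRNA genes on the left and protein-coding genes on the right. Each line is a list, and the dashed line is the nuclear mean. At tRNA genes all 3 lists rise within 100 bp of the 5′ end. The highest bins at tRNA and at protein-coding genes are 6.5 and 1.99 times in the pooled list. They are 4.71 and 1.86 times in replicate 1, and 8.9 and 2.38 times in replicate 2.

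Of the 477 tRNA regions, 294 (61.6%, interval 57.2 to 65.9) held at least 1 site of the pooled list. Among 83488 tiles of 1201 bp over the nuclear chromosomes the share was 29.2%, and among 16296 protein-coding 5′ regions merged in the same way, with a mean width of 1320 bp beside 1364 bp, it was 38.8%. By replicate, 275 tRNA regions (57.7%) held a site of replicate 1, where 31% of tiles did, and 216 (45.3%) one of replicate 2, where 17.9% did. Sites of both replicates stood in 152 regions (31.9%, interval 27.8 to 36.2), beside 8.81% of tiles. Replicate 1 alone had a site in 123 regions (25.8%), replicate 2 alone in 64 (13.4%) and neither in 138 (28.9%). No list had a site in 120 regions (25.2%). The relaxed lists differ in length, with 30000 entries in replicate 1 and 16385 in replicate 2, so the shares of the replicates are each read against their own tiles. Counted per gene, 356 of 612 tRNA genes (58.2%) had a pooled site in their own window, where 38.5% of 19973 protein-coding genes did.

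The thresholded list placed a site in 19 tRNA regions (3.98%, interval 2.56 to 6.14), beside 0.957% of tiles and 2.63% of merged protein-coding 5′ regions. Each of the 19 regions held 1 site, and these were 19 of the 806 thresholded sites on the nuclear chromosomes (2.36%, interval 1.51 to 3.65). Their regions contain 28 tRNA genes, 27 of which have the site in their own window, where 2.93% of protein-coding genes have one. The 832 strongest entries were also taken from each replicate, which is the length of the thresholded list. In replicate 1 they placed a site in 22 tRNA regions (4.61%), beside 0.95% of tiles, and in replicate 2 in 24 (5.03%), beside 0.987%. Among these, 7 regions (1.47%, interval 0.713 to 3) had one in both, beside 0.491% of tiles. The replicates thus shared 7 of 22 and 24 tRNA regions, and 410 of 793 and 824 tiles, a smaller part for the tRNA regions. This difference was not tested.

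At the very top of the lists the tRNA regions did not stand apart from the tiles. The 100 strongest entries of the pooled list and of each replicate placed a site in 0 tRNA regions. In the pooled list 0.0946% of tiles had one at that length. The 200 strongest pooled entries placed a site in 1 region (0.21%), beside 0.212% of tiles. Counts this low do not tell the regions from the tiles. The share rose above that of the tiles further down, to 1.26% beside 0.465% in the 416 strongest pooled entries, 14% beside 2.3% in the strongest 2000 and 35.6% beside 11.1% in the strongest 10000. The ratio to the tiles was highest, among the list lengths tried, at 2000 entries in all 3 lists: 6.1 in the pooled list, 5.28 in replicate 1 and 5.66 in replicate 2. At the limit of the thresholded list, the first tRNA site outside it had pooled rank 840 and a signal value of 27.2, and the lowest value inside the list was 27.4.

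**Figure D2:**
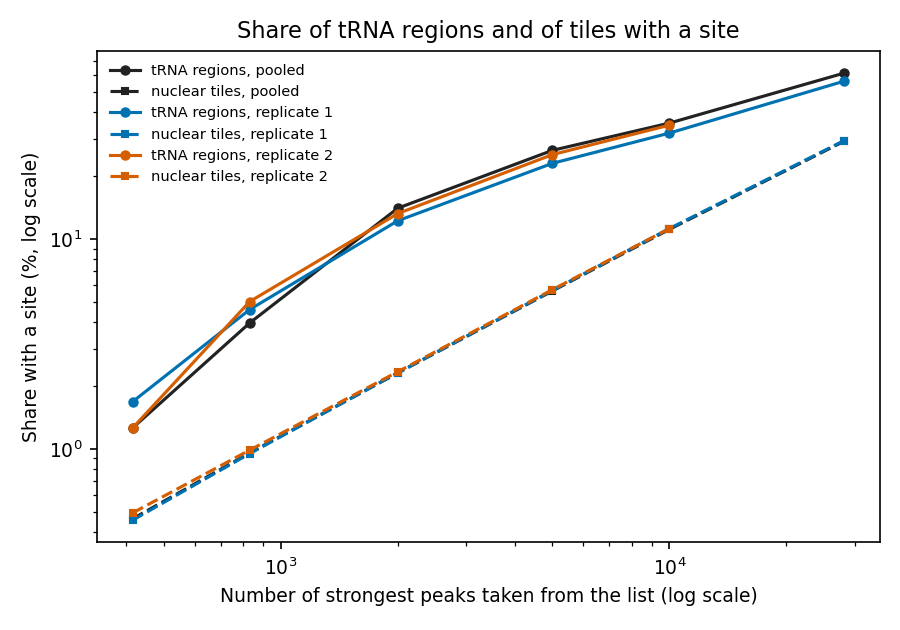
Share of the 477 tRNA regions (circles, solid lines) and of the 1201 bp tiles (squares, dashed lines) with a site, in percent on a log axis, against the number of strongest entries taken from the pooled list and from each replicate, also on a log axis. The lengths drawn start at 416 entries, without the 100 and 200 strongest, where 0 or 1 tRNA region per list had a site. At those lengths at most 0.238% of tiles had one. From 416 entries on, the tRNA regions lie above the tiles in each list, with 14% beside 2.3% at 2000 pooled entries.

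The 19 thresholded tRNA sites lay close to the gene. Their median position was -32 bp, and 16 were within 100 bp of the nearest tRNA 5′ end. Of the 19, 7 lay inside the tRNA gene, 12 upstream of it and 0 downstream. Those at ZK994.t2, at R04A9.t1 and at F08G5.t1 were the only ones more than 100 bp away. Of all 19, 18 were closer to a tRNA 5′ end than to a protein-coding one, and 15 lay outside every protein-coding 5′ window. The median distance to a protein-coding 5′ end was 1528 bp, where it was 671 bp for the other 787 nuclear thresholded sites. By annotation, 10 of the sites were in an intron of a protein-coding gene, 8 were intergenic and 1 was in an exon, while of all nuclear tRNA genes 283 (46.2%) are intronic, 319 (52.1%) intergenic and 10 (1.63%) exonic.

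**Figure D3:**
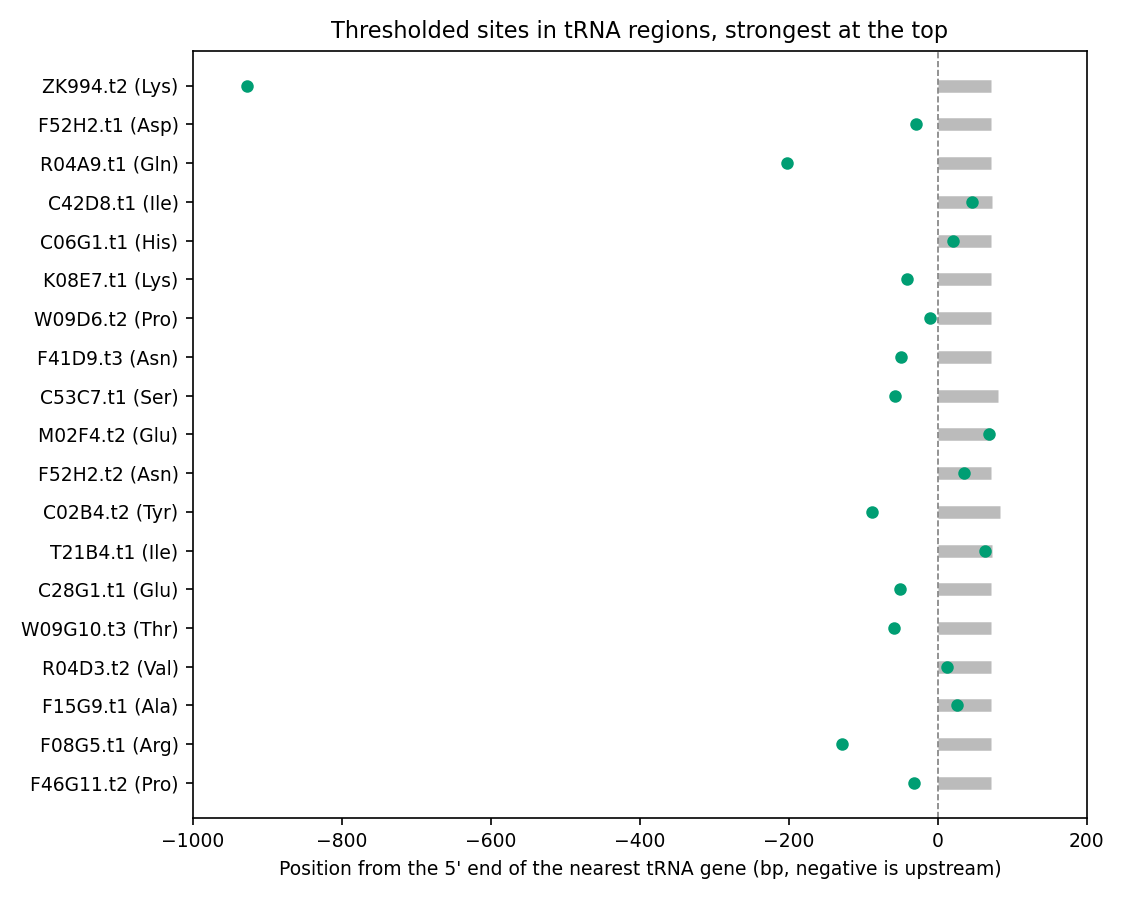
Position of each of the 19 thresholded sites (green points) from the 5′ end of the nearest tRNA gene in bp, negative being upstream, with the gene drawn to scale as a grey bar and the strongest site at the top. Apart from the sites at ZK994.t2, R04A9.t1 and F08G5.t1, the points stand within 100 bp of the 5′ end, 7 of them over the gene.

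The signal value is the authors', its scale is not given in the sources used here, and it is compared below only within a list or by rank. Over the 19 sites it ran from 27.7 to 49.9 with a median of 34.7 in the thresholded list, where the other nuclear sites had a median of 36.8. The value given for a replicate is that of the strongest interval overlapping the thresholded peak by at least 1 bp. All 19 peaks overlapped an interval in replicate 1 and 18 overlapped one in replicate 2.

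The strongest of the 19 was the site nearest to ZK994.t2, a gene for tRNA-Lys in an intron of the peroxidasin gene pxn-1 (peak chrV:8500394-8500733). It had a signal value of 49.9 and rank 179 in the thresholded list, 34.3 and rank 214 in replicate 1, and 13.4 and rank 324 in replicate 2. It was high in both replicates, yet of the 19 it lay farthest from its tRNA gene, 928 bp upstream. Another site high in both and off the gene was that of R04A9.t1, for tRNA-Gln, in an intron of ZK1193.2 (chrX:410018-410357), 203 bp upstream. There the value was 39.1 (rank 349), with 25.3 (rank 483) in replicate 1 and 14.8 (rank 231) in replicate 2. The sequences of both windows, printed above, hold no base of the tRNA gene.

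At F52H2.t1, for tRNA-Asp, the replicates differed. The gene lies in an intron of aat-3, an amino acid transporter gene whose 5′ end is 1276 bp before the site (chrX:2553366-2553705), and the site was 29 bp upstream of the tRNA gene. Its value was 40.8 (rank 318) in the thresholded list, 36.2 in replicate 1 and 4.12 in replicate 2. With rank 183 it led the 19 in replicate 1, but it had rank 4056 in replicate 2. Close by on the same chromosome, F52H2.t2, for tRNA-Asn, had its own site 35 bp inside the gene (chrX:2549395-2549734), 581 bp upstream of the vitamin transporter gene smvt-1. Here the thresholded value was 31.6 (rank 593), beside 22 (rank 681) in replicate 1 and 9.78 (rank 660) in replicate 2, so these ranks were alike.

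C42D8.t1 and C06G1.t1, whose whole genes are printed above, had the site within the gene. At C42D8.t1, for tRNA-Ile, the site was 46 bp inside (chrX:5085479-5085818), in intergenic sequence 1123 bp upstream of ets-5, which encodes an ETS-domain transcription factor. Its value was 37.9 (rank 388), with 23.8 (rank 555) in replicate 1 and 10.6 (rank 557) in replicate 2. At C06G1.t1, for tRNA-His, the site was 21 bp inside (chrX:16634710-16635049), in an intron of C06G1.1 and 1528 bp after that gene's 5′ end. The values were 37.6 (rank 398) in the thresholded list, 27.6 (rank 391) in replicate 1 and 10.4 (rank 580) in replicate 2. Both sites were among the 832 strongest of each replicate.

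K08E7.t1, for tRNA-Lys, lies in an intron of the P-glycoprotein gene pgp-1, and its site was 42 bp upstream (chrIV:12594528-12594867). It had 37.4 (rank 406), 25.8 (rank 470) in replicate 1 and 8.67 (rank 860) in replicate 2. The pair W09D6.t1 and W09D6.t2, both for tRNA-Pro, shared a site 11 bp upstream of W09D6.t2 in an intron of the spindle assembly gene rsa-2 (chrIII:11066760-11067099), 1923 bp upstream of W09D6.1. There the value was 36.6 (rank 430), with 21 (rank 770) in replicate 1 and 9.9 (rank 644) in replicate 2. So W09D6.t2 was among the 832 strongest of both replicates, and K08E7.t1 only of replicate 1.

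F41D9.t3, for tRNA-Asn, in an intron of the anion transporter gene sulp-3, had its site 50 bp upstream (chrX:8404279-8404618), with 35.6 (rank 463), 27.3 (rank 404) in replicate 1 and 7.54 (rank 1131) in replicate 2. C53C7.t1 and C53C7.t2, for tRNA-Ser, lie in intergenic sequence and shared a site 58 bp upstream of C53C7.t1 (chrX:13046350-13046689), with 35 (rank 479), 27.7 (rank 385) in replicate 1 and 11.3 (rank 480) in replicate 2. The strongest overlapping replicate 1 interval at C53C7.t1 had its point source 158 bp from the thresholded one. Whether it marks the same site is not shown. At F41D9.t3 the shift was 2 bp in replicate 1 and 35 bp in replicate 2.

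M02F4.t2, for tRNA-Glu, shared its region with M02F4.t1, for tRNA-Gly, and the site was 69 bp inside M02F4.t2 (chrX:3035808-3036147), 1675 bp upstream of M02F4.2. Its value was 34.7 (rank 493), with 22.8 (rank 625) in replicate 1 and 8.29 (rank 949) in replicate 2. C02B4.t2, for tRNA-Tyr, in an intron of the nuclear hormone receptor gene nhr-17, had its site 88 bp upstream (chrX:12664970-12665309), 1237 bp upstream of the neuropeptide gene nlp-76, with 31.2 (rank 612), 30.3 (rank 315) in replicate 1 and 3.94 (rank 4481) in replicate 2. Like F52H2.t1, it was strong in replicate 1 and far down the list of replicate 2, where the overlapping interval had its point source 181 bp away.

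The other 7 thresholded regions had signal values from 27.7 to 29.9 in the thresholded list. They fall below the 12 strongest, and their names are given to complete the list. T21B4.t1 (Ile), W09G10.t3 (Thr), R04D3.t2 (Val) and F08G5.t1 (Arg) ranked 1368, 1196, 1255 and 1369 in replicate 1 and 611, 605, 574 and 211 in replicate 2, and so stood among the 832 strongest of replicate 2 alone. Conversely, C28G1.t1 (Glu) ranked 359 in replicate 1 and 1703 in replicate 2, and F46G11.t2 (Pro) ranked 365 in replicate 1 and overlapped no interval in replicate 2. F15G9.t1 (Ala), in an intron of the hemicentin gene him-4, ranked 1068 and 14499 and was the 1 site among the strongest of neither replicate.

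Sites within the 5′ window of a protein-coding gene were those at F52H2.t2 and smvt-1, C28G1.t1 and C28G1.2, W09G10.t3 and the lectin gene clec-126, and F08G5.t1 and F08G5.3. For these 4 a tRNA 5′ end and a protein-coding 5′ end share the site, and the data do not separate them.

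Over the 19 sites the ranks ran from 183 to 1369 in replicate 1, with a median of 483, and over the 18 found in replicate 2 from 211 to 14499, with a median of 627. Among the 832 strongest were 14 of them in replicate 1, 11 in replicate 2 and 7 in both. The same counts are not given here for the other 787 nuclear thresholded sites. Whether the tRNA sites are typical of the list in this is therefore not shown. The better of the 2 ranks was in replicate 1 for 12 sites and in replicate 2 for 7. For each of the 19 sites the rank in the thresholded list was also its rank in the pooled list. The 832 strongest pooled entries placed a site in 19 tRNA regions and 799 tiles, the same counts as the thresholded list. A place in that list therefore does not show that each replicate holds the site strongly. How the authors set the limit of the thresholded list is not given in the sources used here.

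**Figure D4:**
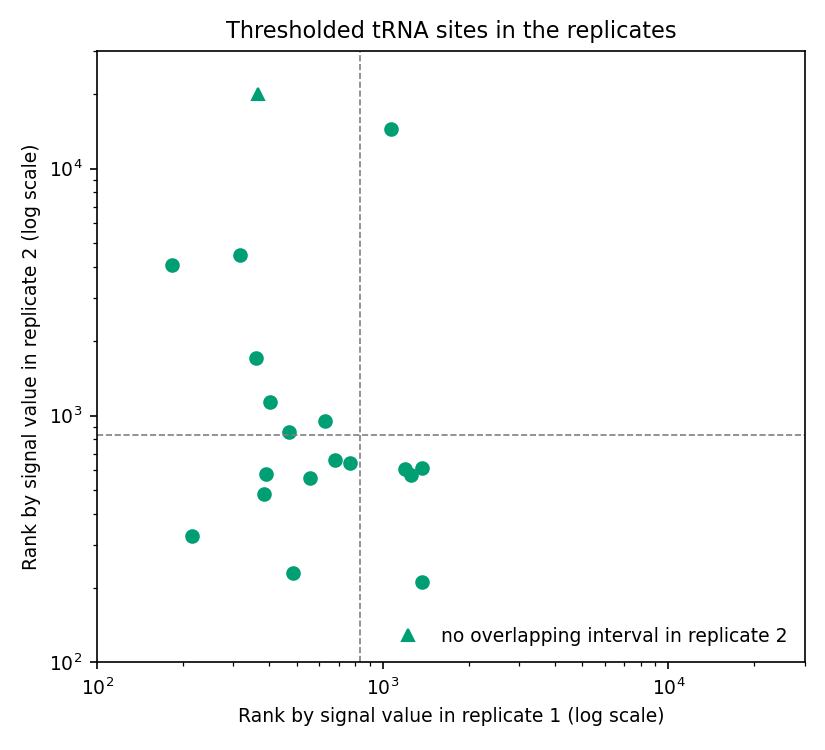
Rank of each thresholded tRNA site by signal value in replicate 1 (horizontal) and replicate 2 (vertical), both on log axes, where a low rank is a strong site. The dashed lines mark rank 832, and the triangle, set at an arbitrary height, is the site with no interval in replicate 2. The lower left part holds 7 sites, and 3 points lie at rank 4056 or beyond in replicate 2.

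The X chromosome carries many of the tRNA genes, 276 of 612 (45.1%), in 194 regions. On X, 13 regions (6.7%, interval 3.96 to 11.1) had a thresholded site, beside 1.1% of X tiles, and on the autosomes 6 of 283 (2.12%, interval 0.975 to 4.55), beside 0.927% of autosomal tiles. The 6 were at K08E7.t1 and F08G5.t1 on IV, T21B4.t1 and W09G10.t3 on II, W09D6.t2 on III and ZK994.t2 on V. On chromosome I the count was 0 of 54 regions, which allows a share of up to 5.56%. In the pooled list the shares were 67.5% on X, beside 31.8% of tiles, and 57.6% on the autosomes, beside 28.7%. Both replicates had a site in 74 X regions (38.1%) and 78 autosomal ones (27.6%), beside 8.81% of all nuclear tiles, a share not split by chromosome here. Among the autosomes the pooled share ran from 47.1% on V to 65.5% on III, with no tile share of each chromosome to set beside it. The difference between X and the autosomes was not tested, and the thresholded intervals of the pair overlap.

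Regions with several tRNA genes are wider than those with 1 gene, and no background of their width was made. Of 95 such regions, 8 (8.42%, interval 4.33 to 15.7) had a thresholded site, 71 (74.7%) a pooled one and 40 (42.1%) one in both replicates. Of the 382 regions with 1 gene the counts were 11 (2.88%, interval 1.62 to 5.08), 223 (58.4%) and 112 (29.3%). The thresholded intervals overlap, and the difference was not tested.

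Since the sites stood so near the 5′ end, the genes were also compared by sites within 100 bp on either side of it, a distance chosen after the positions had been seen. By this measure 18 of 612 tRNA genes (2.94%) had a thresholded site, beside 0.471% of protein-coding genes and 0.162% of tiles of 201 bp. For the pooled list the count was 210 (34.3%), beside 8.55% of protein-coding genes and 5.64% of tiles. Replicate 1 had a site at 162 genes (26.5%), replicate 2 at 147 (24%) and both at 71 (11.6%), beside 0.635% of tiles. Because the window was chosen on these sites, its shares describe the crowding already given and add nothing independent to it.

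Close sites were seen both at genes with the exact letters of the B box core and at genes without them. A gene without these exact letters may still hold a B box, so the split does not separate genes with and without one. With the core, 133 of 395 genes (33.7%) had a pooled site within 100 bp, and without it 77 of 217 (35.5%), and both replicates had one at 11.4% and 12%. A close thresholded site was at 14 of the genes with the core (3.54%) and at 4 without it (1.84%). Among genes with a sequence found once, the pooled shares were 19.5% with the core and 27.9% without. None of these differences was tested. Intergenic genes had a close pooled site at 113 of 319 (35.4%) and intronic genes at 93 of 283 (32.9%). For an intron on the same strand as the tRNA gene the share was 33.1%, and on the opposite strand 32%. Outside protein-coding 5′ windows 168 of 499 tRNA genes (33.7%) had one, and inside them 42 of 113 (37.2%).

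By gene copy number the shares lay further apart. The 612 genes have 200 distinct sequences, and 143 genes have a sequence found once. Of these single-copy genes 33 (23.1%) had a close pooled site, of the 152 genes with 2 to 9 copies 51 (33.6%) and of the 317 with 10 or more copies 126 (39.7%). In both replicates together the shares were 9.09%, 12.5% and 12.3%, so the order did not hold between the upper classes. A thresholded site within 100 bp was at 1 of the single-copy genes (0.699%), at 4 with 2 to 9 copies (2.63%) and at 13 with 10 or more (4.1%), and these differences were not tested. The nearest genes of the 19 thresholded sites had a median of 15 copies, from 1 to 25, where the median over all tRNA genes was 10 and the highest 29, and W09G10.t3, for tRNA-Thr, was the 1 single-copy gene nearest to a thresholded site.

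Copies that are identical in sequence did not all have a site. Among the 20 sequences with 10 or more copies, each had at least 1 copy with a close pooled site and 0 had one at every copy. The share of copies ran from 18.2% to 66.7% with a median of 35.5%, beside 34.3% of all tRNA genes. The median lies near that share, so a site at some copies and not at others is not read as a trait of identical copies. A sequence for tRNA-Glu led, with 10 of 15 copies, followed by one for tRNA-Lys with 15 of 25 (60%) and one for tRNA-Ala with 9 of 15. The most numerous sequence, for tRNA-Gly, had a site at 10 of 29 copies (34.5%), and a sequence for tRNA-Ser had one at 2 of 11. K08E7.t1 belongs to the Lys sequence with 25 copies, and W09D6.t2 and F46G11.t2 have 24 copies each.

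Repeated sequence limits where sequencing reads can be placed, and how the authors treated reads with several matches is not given in the sources used here. Stretches of 31 bases that occur once in the genome began at a median of 73.1% of positions within 100 bp of all tRNA 5′ ends, 72.1% (66.2% to 77.6%) for the nearest genes of the 19 sites and 73.6% for genes in regions with no site. Over all tRNA genes the share ran from 0 to 100%, so some genes also have repeated flanks. Within the tRNA gene bodies the median was 0, and 200 to 400 bp upstream it was 100%. The part this plays in the position of the sites was not tested.

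By amino acid, close pooled sites were spread over all 20 standard classes, where 34.3% of all tRNA genes had one. The highest shares were at genes for tRNA-Ala and tRNA-Thr, with 16 of 34 each (47.1%), then Lys with 21 of 46 (45.7%) and Asn with 9 of 20 (45%). The lowest were at Arg with 10 of 44 (22.7%), His with 5 of 20 (25%) and Ser with 10 of 39 (25.6%). In both replicates the order differed, with Phe (21.4%) and Leu (17.9%) highest and Val (3.23%), Gly (3.64%) and Gln (3.7%) lowest. Counts of 1 to 7 genes stand behind those shares, and many genes of a class are copies of the same sequence, so no order among the classes is read from them. Thresholded sites within 100 bp were at 3 genes for tRNA-Pro and at 2 each for Asn, Glu, Ile and Ser. The 8 classes Arg, Cys, Gln, Gly, Leu, Met, Phe and Trp had 0. Over all tRNA genes the share was 2.94%, and these classes have from 12 genes (Trp) to 55 (Gly). A count of 0 therefore does not set a class apart.

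**Figure D5:**
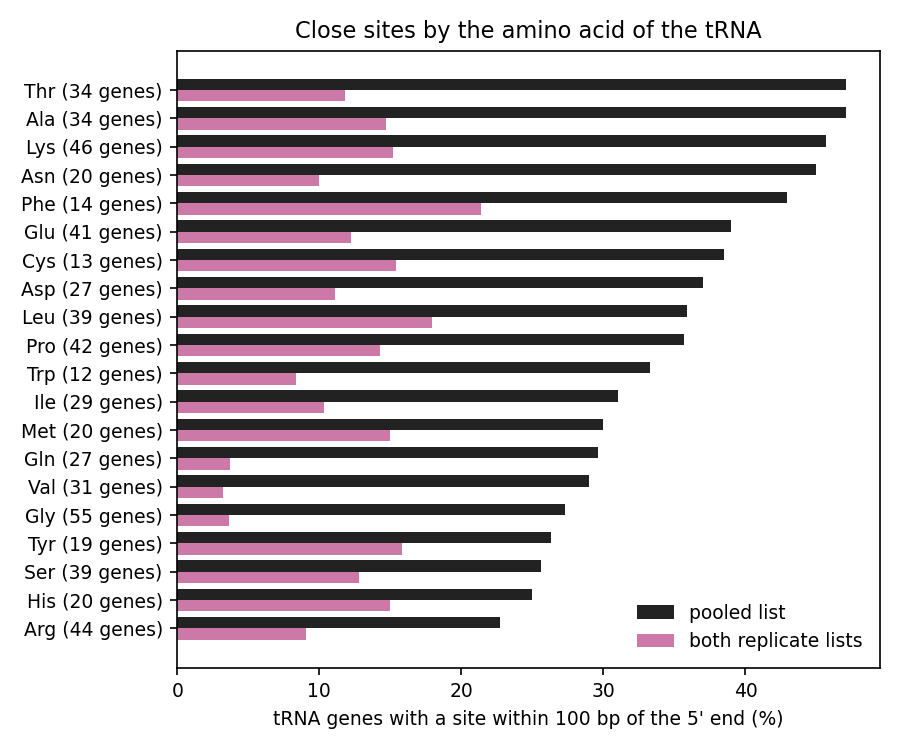
Share of tRNA genes with a site within 100 bp of the 5′ end, in percent, by the amino acid the tRNA carries, for the pooled list (black) and for both replicates (pink), with the number of genes in parentheses. Pooled shares run from 22.7% for Arg to 47.1% for Ala and Thr, and the order in both replicates differs. A single selenocysteine gene and 5 genes with no amino acid given are not drawn.

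No MEF2 element lay near the thresholded tRNA sites. With both strands searched out to 100 bp from the site, the element was found at 0 of 19, where 40 of the other 787 nuclear thresholded sites (5.08%) held it, and its core at 0 of 19, where 18 (2.29%) did. A count of 0 of 19 allows a share of up to 15.8%, so the groups were not separated at this number of sites. Over all tRNA 5′ ends 2.12% had the element within 100 bp, beside 6.16% of protein-coding 5′ ends, and 0.654% had the core, beside 1.84%. The sequence TATAAA was at 2 of 19 sites (10.5%), those nearest to ZK994.t2 and C53C7.t1, beside 80 of 787 (10.2%). All tRNA 5′ ends had it at 13.9% and protein-coding ones at 26.5%.

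The B box core GGTTCGA, also searched on both strands, stood within 100 bp of 9 of the 19 sites (47.4%) and of 7 of the other 787 (0.889%). It is part of most tRNA genes, with 63.4% of all tRNA 5′ ends holding it within 100 bp beside 1.11% of protein-coding ones, so the count at the 19 sites is read against that share. Of the nearest tRNA genes, 15 of 19 hold it. In base composition the sites had a median G and C content of 45.8% (38.8% to 53.2%) within 100 bp. It was 45.8% at all tRNA 5′ ends, 44.8% at the other thresholded sites, 35.8% at protein-coding 5′ ends and 35.4% over the genome. Since 16 of the 19 sites lie within 100 bp of a tRNA 5′ end, their windows overlap those of the 5′ ends. The likeness to the tRNA 5′ ends is thus largely given by position. A letter match is not a binding site, and a missing one says only that these letters are not in the window.

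The protein-coding genes listed for tRNA transcription, processing, modification and export carried no thresholded site. Of 66 listed symbols 48 matched the annotation, and 0 of the 48 had a thresholded site in the 5′ window, which allows a share of up to 6.25% and so does not stand apart from the 2.93% of all protein-coding genes. In the pooled list 27 (56.2%) had a site, beside 38.5% of all protein-coding genes. Of 12 listed symbols for subunits of RNA polymerase III only 4 matched, rpc-1, rpc-2, rpc-11 and rpc-25. None of the 4 had a pooled site, too few genes to stand apart from the 38.5%. At rpc-25 replicate 1 alone had a site, at rank 22405. Of 7 genes for subunits shared with other polymerases 3 had a pooled site. Among initiation factors and regulators it was 3 of 6: tftc-1, for a subunit of TFIIIC, had a site 150 bp upstream with a pooled signal value of 18.8 (rank 1785, with ranks 2743 and 2950 in replicates 1 and 2), mafr-1, the gene for the polymerase III repressor Maf1, had one of 12.9 (rank 4079), and tftc-3 one of 6.88 (rank 19415).

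Of the 6 matched genes for processing of tRNA ends 5 had a pooled site, led by popl-7, for a subunit of RNase P, at 18.4 (rank 1867, with 5367 in replicate 1 and 4296 in replicate 2). Modification genes had 13 of 20. The strongest pooled sites there were at mtcu-2, with 21.9 and rank 1312, and at nsun-5, with 20 and rank 1569. The list holds members not known for tRNA. Among them are nsun-5 and nsun-1, both among the 13, which encode methyltransferases known to act on ribosomal RNA. They need not be the only ones, so 13 of 20 counts listed genes and not genes shown to act on tRNA. Those ranks again differed by replicate, with 3553 and 394 at mtcu-2 and 1181 and 5173 at nsun-5 in replicates 1 and 2. Splicing and export genes had 3 of 5, rtcb-1, for the ligase that joins the exons of spliced tRNA, among them at 9.31 (rank 9481). Only the site at mtcu-2 was among the 832 strongest of a replicate.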

How the data were processed

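ChIP-seq peak lists on ce11 of 2 biological replicates (1 group; library size range 150 to 350 bp per the labels) were used: 1 relaxed list per replicate, 1 for the pooled replicates, and the IDR-thresholded list. Per the deposited file records, a control entered the calling of the relaxed lists, from which the thresholded list was derived. The sources used here give no aligner, caller or IDR limit. The deposited signal value has no stated scale and was used within a list or by rank. Read counts and a control library were not analysed here, so depth is unknown. The ce10 lists were not used. A site is the peak start plus the point-source offset, both as the authors deposited them.

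Genes came from Ensembl release 115 and tRNA names and sequence from RefSeq for WBcel235, with all 612 genes matched. Background tiles have 1201 bp. Elements were searched within 100 bp on both strands. Counts are descriptive, with 95% Wilson intervals, and a limit of 3 counts where the count was 0. The counting was checked on simulated sites. Python 3.11.15, numpy 2.4.6, pandas 2.3.3, scipy 1.17.1 and matplotlib 3.10.9 were used.

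The regions, lists and naming rule were chosen with earlier results of these data known. The rule describes in full the 12 tRNA regions with the highest thresholded signal values and names a protein-coding 5′ end within 2000 bp. It also covers regions among the 832 strongest of both replicates but outside the thresholded list, of which there were 0. Of 66 tRNA pathway symbols, 18 matched no nuclear protein-coding gene. Alternatives varied the window, the overlap rule, list length, merging, chromosomes and replicates.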

Additional observations from a re-analysis of the deposited data

How the results depend on the processing

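Of 44 alternatives over 7 results, 33 left the value within 1.5 times the reported count, or the position within 20.5 bp, and 11 moved it. The 20.5 bp is the standard deviation of the median positions from each replicate alone, so for those alternatives the comparison is circular. Only the position could change sign, which 0 alternatives did, and a count has no direction to reverse. Of the 44, 8 were added after seeing the data. The 416 strongest thresholded peaks held 6 tRNA regions, 6 tRNA genes and 6 regions away from protein-coding 5′ ends, in place of 19, 27 and 15. The autosomes alone held 6 regions and 9 genes. With no protein-coding 5′ end within 2000 bp, 7 regions were left. The strongest 10000 entries gave 170 regions in the pooled list and 83 in both replicates, in place of 294 and 152, and a window of 100 bp on either side of the 5′ end gave 73 in both. Taking 416 strongest peaks of each replicate placed sites of both replicates in 1 region and taking 1664 in 23, in place of 7. Each of these alternatives takes fewer or more peaks, genes or bases, which by construction moves a count. Without 1 replicate, the strongest 832 peaks of the other gave 22 to 24 regions, 28 to 31 genes, 17 to 18 regions away from protein-coding 5′ ends and a median position from -50.5 to -21.5 bp, and its relaxed list gave 216 to 275 regions. No paired analysis was possible because there is 1 group and no test. Depth is unknown, so a region without a site was not detectable in these lists, which does not show that MEF-2 is absent there.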
